A study of Mus musculus with 6 samples.

Results

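Genes of the proteasome, the complex that degrades proteins marked with ubiquitin, were compared between IL-11+ and IL-11- fibroblasts of the inflamed mouse colon. Members were taken by symbol, as *Psma* to *Psmg* followed by a number, and the tag counts hold 49 of them among 20327 symbols. They encode 14 subunits of the constitutive core particle, 3 of the immune core (*Psmb8*, *Psmb9* and *Psmb10*), 17 of the regulatory particle, 5 activator subunits, 1 inhibitor and 7 assembly chaperones. Another 2 symbols match for other reasons. *Psmb11* is the core subunit of thymic epithelium, and *Psmc3ip* is a recombination factor and not a subunit.

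C57BL/6 mice with the *Il11-Egfp* transgene, aged 9 to 15 weeks, drank 1.5% dextran sulfate sodium (DSS), which injures the colon epithelium, for 5 days, and cells were sorted from the colon on day 7. The sort took Ter119-CD45-CD31-EpCAM- cells and separated EGFP+ cells (here IL-11+ fibroblasts) from EGFP- cells (IL-11- fibroblasts), with 3 libraries per group. The reporter is a bacterial artificial chromosome with *Egfp* placed in *Il11*, kept as 1 selected line, so cells were separated by the activity of a transgene, and all 6 libraries come from DSS-treated reporter mice. The comparison addresses how fibroblasts that express IL-11 in colitis differ from those that do not. RNA was read by 5′Tag-seq, which counts tags from the 5′ side of polyA transcripts, and the tags summed to 1057170, 1078179 and 1169817 for the IL-11- libraries (replicates 1 to 3) and to 1046538, 1022851 and 1049048 for the IL-11+ libraries. Levels are given as normalized CPM, that is, tags scaled by TMM and to the summed tags of the tested genes in the library. At this depth 3 tags stand at 2.46 to 3.18 normalized CPM, and such floors, like the intervals of shares given here, speak for counting error alone.

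The core particle is a barrel of stacked rings, in which alpha subunits form the gate and beta subunits the chamber, and 3 of the beta subunits cut proteins. A regulatory particle with a ring of ATPases binds, unfolds and feeds in ubiquitinated proteins. Interferon gamma makes many cells, fibroblasts included, replace the cutting subunits by their immune counterparts and add the PA28 activator, which changes the peptides offered on MHC class I molecules.

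*Il11* stood at 26.7, 48.1 and 73.1 normalized CPM in IL-11- replicates 1 to 3 and at 1438.3, 743.2 and 2534.8 in IL-11+ replicates 1 to 3. This is not a check independent of the sort. The reporter has *Egfp* placed within *Il11*, so 5′ tags of its RNA may be counted as *Il11*. The genes of the gate were at or near 0, with 1, 2 and 7 tags of *Ptprc* (CD45) in IL-11- and 0, 3 and 0 in IL-11+ fibroblasts. *Pecam1* (CD31) had 1 tag over all 6 libraries, in IL-11- replicate 2, and *Epcam* had 1 tag in IL-11- replicate 1 and 1 in IL-11+ replicate 3. Both groups carried fibroblast markers, 9 of 9 of which were tested. In IL-11+ fibroblasts 4 were higher, against 6.84% of all tested genes, and 1 (*Lum*) lower, against 8.70%, at an edgeR adjusted p under 0.05. With same-numbered libraries paired as a replicate block 5 were higher, against 9.33% (also *Col1a2*, of which the edgeR adjusted p moved from 0.14 to 0.0128). The most abundant of the 9 markers was *Dcn*, and their summed tags were 23169, 23464 and 30002 in IL-11- and 39841, 33445 and 31786 in IL-11+ fibroblasts.

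Markers of other cells differed between the groups. Of 8 smooth muscle and pericyte markers, 6 were lower, against 8.70% of all tested genes, and 2 (*Kcnj8* and *Abcc9*) higher, against 6.84%, in IL-11+ fibroblasts at an edgeR adjusted p under 0.05 (*Kcnj8* not with DESeq2, 0.0576), none was at 0 in every library, and *Rgs5* was the most abundant. Their summed tags were 4162, 4292 and 5321 in IL-11- against 921, 840 and 925 in IL-11+ fibroblasts. Of the glial markers, *Gfap* had 22, 23 and 26 tags in the IL-11- and 1, 0 and 1 in the IL-11+ libraries, and *S100b* and *Sox10* were at 0 in IL-11+ fibroblasts. No marker of the erythroid, leukocyte, endothelial and epithelial lists passed the low-count filter. The 5 erythroid markers, led by *Hbb-bs*, summed to 95, 0 and 372 tags in IL-11- and to 17, 2 and 20 in IL-11+ fibroblasts. The 14 leukocyte markers, led by *Cd68*, summed to 27, 52 and 38 against 45, 21 and 23 tags, the 5 endothelial markers, led by *Plvap*, to 15, 13 and 13 against 0, 4 and 4, and the 6 epithelial markers, led by *Krt8*, to 3, 0 and 16 against 2, 1 and 6. The part of these cells in the differences of proteasome genes was not tested, and fewer cells of a type cannot be told apart from less RNA per cell.

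Most proteasome genes had a slightly higher estimate in the IL-11+ group, and no member passed the study's threshold. The summed level of the 49 members was 3271.1 ± 232.8 normalized CPM in IL-11- fibroblasts, against 3978.9 ± 54.2 in IL-11+ ones (SD, n = 3 each). Of the 49, 46 reached 10 tags in 3 or more of the 6 libraries and were tested among 9334 genes, and 40 of the 46 reached 10 tags in every library. The estimate was above 0 for 38 of the 46 (82.6%), against 48.8% of all tested genes, and the median log2 fold change was 0.22 against −0.01.

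The main edgeR fit left out the replicate block. With edgeR's quasi-likelihood test and Benjamini-Hochberg adjustment, an adjusted p under 0.05 and a change over 2-fold, 0 of 46 members were higher, against 3.44% of all tested genes, and 0 were lower, against 6.37%. At an unadjusted p under 0.05, 9 members (19.6%) were higher, against 12.2% of all tested genes, and 0 lower, against 14.5%. DESeq2 called 0 members in either direction at the same threshold, against 3.04% of all tested genes higher and 5.17% lower. At its unadjusted p under 0.05, 6 members were higher, against 9.66%, and 0 lower, against 11.1%. Without the fold-change threshold, 6 of 46 members (13.0%) were higher at an adjusted p under 0.05, against 6.84% of all tested genes, and 0 were lower, against 8.70%. The 6 were *Psmb5*, *Psma6*, *Psmc1*, *Psmc2*, *Psmd2* and *Psmd13*, that is, subunits of the constitutive core and of the regulatory particle. The count was 3 with DESeq2, which called 5.09% of all tested genes higher. It was lower without any 1 of the 6 libraries, at 2 without IL-11- replicate 1 (4.79% of all tested genes called higher), 3 without IL-11- replicate 3 (5.63%) and 4 or 5 without each other library (4.73% to 5.95%). The 3 IL-11+ values lay above the 3 IL-11- values for 11 of 46 members (23.9%), against 14.5% of all tested genes, and below them for 1, *Psmd5*, against 16.7%.

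**Figure D1:**
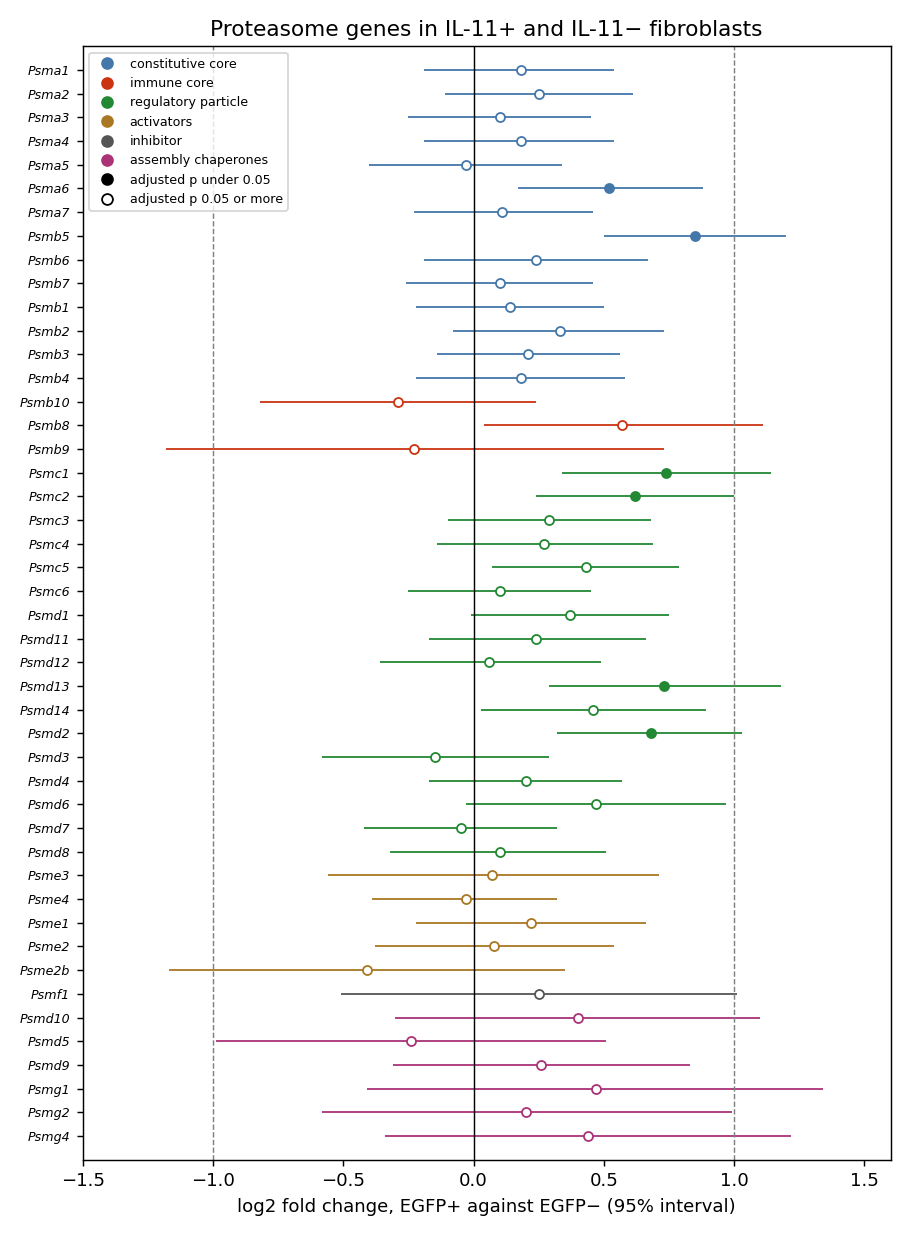
Log2 fold change of the 46 tested members, EGFP+ (IL-11+) against EGFP- (IL-11-) fibroblasts, with 95% intervals from edgeR's quasi-likelihood fit (n = 3 libraries per group). Colors give the class, filled points an adjusted p under 0.05, and dashed lines a 2-fold change; the 6 filled points lie between 0.52 and 0.85.

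*Psmb5*, which encodes the constitutive subunit with chymotrypsin-like activity, had the largest difference of the 46 members. It stood at 139.4, 140.4 and 169.2 normalized CPM in IL-11- replicates 1 to 3 and at 288.3, 244.7 and 277.5 in IL-11+ replicates 1 to 3. The lowest IL-11+ library was well above the highest IL-11- library. The log2 fold change was 0.85 (SE 0.165, 95% interval 0.50 to 1.20), a 1.80-fold difference with an edgeR adjusted p of 0.00125. It kept an adjusted p under 0.05 in all 13 alternatives, 6 of which left out a library. Of the 50-nt windows in the first 300 nt of its transcripts, 55.0% also occur in transcripts of other genes, nearly all in *Gm3375*, so that its count is uncertain as far as tags were shared. For the other 5 called members this share was at most 4.52%.

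The other cutting subunits of the constitutive core gave smaller differences. *Psmb6*, of the caspase-like activity, stood at 54.4, 73.5 and 86.2 normalized CPM in IL-11- and at 71.0, 100.5 and 82.0 in IL-11+ fibroblasts. *Psmb7*, of the trypsin-like activity, stood at 89.8, 96.1 and 108.4 in IL-11- and at 115.5, 94.4 and 106.8 in IL-11+ fibroblasts. The groups overlapped for both genes. Their log2 fold changes were 0.24 (95% interval −0.19 to 0.67) and 0.10 (−0.26 to 0.46), with edgeR adjusted p of 0.51 and 0.766.

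Of the 14 constitutive core genes, 13 (92.9%) had an estimate above 0, against 48.8% of all tested genes, with a median log2 fold change of 0.18. Without the fold-change threshold 2 (14.3%) were called higher, against 6.84%, and 1 with DESeq2. The other called gene was *Psma6*, a subunit of the alpha ring, at 71.6, 80.1 and 84.6 normalized CPM in IL-11- and at 104.9, 117.8 and 117.3 in IL-11+ fibroblasts. The groups did not overlap, and the IL-11+ libraries lay close together. On the log2 scale the difference was 0.52 (SE 0.170), with an edgeR adjusted p of 0.0442. This call was near the threshold and was lost when any 1 of the 6 libraries was left out, and also with library size only, with DESeq2 and with 2 other low-count filters (adjusted p 0.0201 to 0.176 over 13 alternatives). Next by p were *Psmb2*, a beta subunit that does not cut, with a log2 fold change of 0.33 and an edgeR adjusted p of 0.303, and *Psma2*, of the alpha ring, with 0.25 and 0.398. *Psma5* was the 1 gene of the class below 0, at −0.03.

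The estimates of the immune core did not share a direction. *Psmb8*, the immune counterpart of *Psmb5*, stood at 71.6, 73.5 and 96.9 normalized CPM in IL-11- replicates 1 to 3 and at 61.5, 148.2 and 150.7 in IL-11+ replicates 1 to 3. IL-11+ replicates 2 and 3 were above every IL-11- library, and IL-11+ replicate 1 was below every one. The log2 fold change was 0.57 (SE 0.257, 95% interval 0.04 to 1.11), with an unadjusted p of 0.0381 and an edgeR adjusted p of 0.155. With the replicate block, its adjusted p was 0.0323, in a fit in which 9.33% of all tested genes were called higher, and *Psmb8* joined the 6 called members. Without IL-11+ replicate 1, the log2 fold change was 0.89 and the adjusted p 0.00463 (5.26% of all tested genes called higher), and with no low-count filter the adjusted p was 0.0259 (3.99%). *Psmb8* was called in these 3 of the 13 alternatives, and over all 13 the adjusted p ranged from 0.00463 to 0.44.

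*Psmb9*, the counterpart of *Psmb6*, had few tags, 12, 8 and 22 in IL-11- and 4, 12 and 16 in IL-11+ fibroblasts. *Psmb10*, the counterpart of *Psmb7*, stood at 40.1, 57.5 and 61.6 normalized CPM in IL-11- and at 29.7, 57.9 and 42.9 in IL-11+ fibroblasts. IL-11+ replicate 1 was the lowest of the 6 libraries for all 3 immune genes, and the groups overlapped for each. The log2 fold changes were −0.23 (95% interval −1.18 to 0.73) for *Psmb9* and −0.29 (−0.82 to 0.24) for *Psmb10*, with edgeR adjusted p of 0.813 and 0.52. The median over the 3 genes was −0.23, and it was 0.14 without IL-11+ replicate 1 and 0.15 without IL-11- replicate 3. Without the replicate block edgeR called 0 of 3 genes, and DESeq2 called 0. At edgeR's unadjusted p under 0.05, 1 was higher (*Psmb8*), as were 12.2% of all tested genes.

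**Figure D2:**
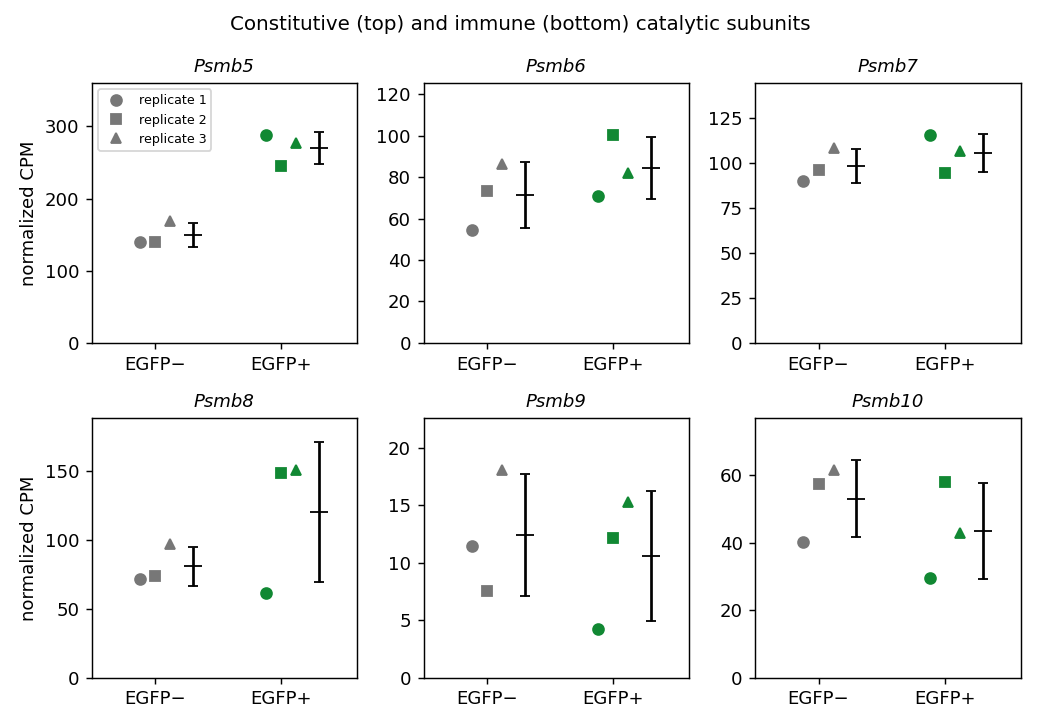
Normalized CPM of the constitutive cutting subunits *Psmb5*, *Psmb6* and *Psmb7* and, under each, its immune counterpart, in EGFP- and EGFP+ fibroblasts. Symbols are libraries by replicate number and bars are the mean ± SD (n = 3); for *Psmb8* IL-11+ replicate 1, at 61.5, lies below all 5 other libraries.

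Immune and constitutive subunits compete for the same places in a new core particle, so their tags were compared within each library. Ratios of tags were compared between libraries, not between genes, since tags are not divided by length. The ratio of *Psmb8* to *Psmb5* was 0.514, 0.523 and 0.573 in IL-11- and 0.213, 0.606 and 0.543 in IL-11+ fibroblasts. Since 55% of the 5′ windows of *Psmb5* occur in other genes, this ratio is uncertain as far as tags were shared. The share over the 6 genes given below has the same limit. The ratio of *Psmb9* to *Psmb6* was 0.211, 0.103 and 0.210 in IL-11- and 0.0597, 0.121 and 0.186 in IL-11+ fibroblasts. The ratio of *Psmb10* to *Psmb7* was 0.447, 0.598 and 0.568 against 0.257, 0.613 and 0.402. In each pair IL-11+ replicate 1 had the lowest ratio of the 6 libraries, and the other IL-11+ libraries lay within or close to the IL-11- values. Taken over the 6 genes, immune tags made up 30.3%, 30.9% and 32.7% in IL-11- replicates 1 to 3 and 16.7%, 33.2% and 30.9% in IL-11+ replicates 1 to 3. The 95% Wilson interval of IL-11+ replicate 1 was 13.8% to 20.1%, below those of the other libraries, of which the lowest bound was 26.1%.

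The regulatory particle had the highest median of the core and regulatory classes. Of its 17 genes, 15 (88.2%) had an estimate above 0, against 48.8% of all tested genes, and the median log2 fold change was 0.29. Without the fold-change threshold 4 (23.5%) were called higher, against 6.84%, and 2 with DESeq2. The summed level was 1284.4 ± 69.6 normalized CPM in IL-11- fibroblasts, against 1629.8 ± 72.3 in IL-11+ ones (SD, n = 3 each). *Psmd3* (−0.15) and *Psmd7* (−0.05) were below 0.

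Of the 6 ATPases that unfold substrates, all had an estimate above 0, against 48.8% of all tested genes, and 2 (33.3%) were called higher, against 6.84%. *Psmc1* stood at 98.3, 98.9 and 79.6 normalized CPM in IL-11- and at 192.9, 148.2 and 121.1 in IL-11+ fibroblasts, without overlap but with a wide spread among the IL-11+ libraries. Its log2 fold change was 0.74 (SE 0.192, 95% interval 0.34 to 1.14), with an edgeR adjusted p of 0.0121. The adjusted p was 0.0623 without IL-11- replicate 3 and 0.0763 without IL-11+ replicate 1, the latter being the highest of 13 alternatives, of which the lowest was 0.000617. *Psmc2* stood at 64.0, 72.5 and 84.6 in IL-11- and at 103.9, 105.6 and 130.7 in IL-11+ fibroblasts, again without overlap. Its log2 fold change was 0.62 (SE 0.182), with an edgeR adjusted p of 0.026. The call was lost without IL-11- replicate 1 (0.132), IL-11- replicate 2 (0.107) or IL-11+ replicate 3 (0.105), with library size only (0.077) and with DESeq2 (0.0683), and the lowest of 13 adjusted p was 0.00553. *Psmc5*, at 0.43 with an edgeR adjusted p of 0.11, and *Psmc3*, at 0.29 with 0.356, did not pass.

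Of the 11 non-ATPase subunits, which bind ubiquitin, remove it or hold the particle together, 9 (81.8%) had an estimate above 0, against 48.8% of all tested genes, and 2 (18.2%) were called higher, against 6.84%. *Psmd2*, a large scaffold subunit of the base, stood at 85.0, 99.9 and 89.5 normalized CPM in IL-11- and at 164.3, 136.1 and 139.2 in IL-11+ fibroblasts. The groups were well apart. On the log2 scale the difference was 0.68 (SE 0.169, 95% interval 0.32 to 1.03), with an edgeR adjusted p of 0.00913, and the adjusted p was just over the threshold without IL-11- replicate 1 (0.0501) and 0.00152 to 0.0501 over 13 alternatives. *Psmd13*, a subunit of the lid, stood at 39.1, 66.9 and 47.6 in IL-11- and at 94.3, 79.2 and 82.0 in IL-11+ fibroblasts. The IL-11- libraries differed more among themselves than the IL-11+ libraries, and the groups did not overlap. The log2 fold change was 0.73 (SE 0.211), with an edgeR adjusted p of 0.0229, and the call was lost without IL-11- replicate 1 (0.135), IL-11- replicate 3 (0.084) or IL-11+ replicate 1 (0.0793) and with DESeq2 (0.0547), the lowest of 13 being 0.0045. *Psmd14*, the deubiquitinating enzyme of the lid, stood at 37.2, 51.8 and 47.6 in IL-11- and at 63.6, 59.9 and 64.8 in IL-11+ fibroblasts. These groups did not overlap either, with a log2 fold change of 0.46 and an edgeR adjusted p of 0.155. *Psmd1*, the other large scaffold subunit, had 0.37 and 0.20.

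No difference was detectable for the activators. *Psme1* and *Psme2*, which form the PA28 ring induced by interferon, stood at 46.8, 54.6 and 52.6 and at 42.0, 45.2 and 57.5 normalized CPM in IL-11- fibroblasts. In IL-11+ fibroblasts *Psme1* stood at 72.1, 48.7 and 59.1 and *Psme2* at 47.7, 44.7 and 61.0. The groups overlapped for both, with log2 fold changes of 0.22 (95% interval −0.22 to 0.66) and 0.08 (−0.38 to 0.54) and edgeR adjusted p of 0.554 and 0.864. The nuclear activator *Psme3* (0.07, 95% interval −0.56 to 0.71) and the large activator *Psme4* (−0.03, −0.39 to 0.32) had edgeR adjusted p of 0.913 and 0.938. *Psme2b*, a copy of *Psme2* that shares 83.3% of its 5′ windows with it, had −0.41 and an edgeR adjusted p of 0.52, and the counts of the pair are uncertain for that reason. The median over the 5 genes was 0.07, and −0.01 with library size only. EdgeR called 0 of 5, against 6.84% of all tested genes higher and 8.70% lower, with 0 at an unadjusted p under 0.05, and DESeq2 called 0.

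Assembly chaperones had fewer tags and wider intervals. Of 6 tested, 5 (83.3%) had an estimate above 0, against 48.8% of all tested genes, with a median log2 fold change of 0.33 and a median SE of 0.364. This median was 0.16 without IL-11- replicate 2 and 0.22 without IL-11+ replicate 1. EdgeR called 0, against 6.84% of all tested genes higher and 8.70% lower, with 0 at an unadjusted p under 0.05, and DESeq2 called 0. *Psmd10* (0.40) and *Psmd9* (0.26), which help to build the regulatory base, had edgeR adjusted p of 0.497 and 0.602. *Psmg4* (0.44) and *Psmg1* (0.47), which help to build the core, had 0.499 and 0.524. *Psmd5*, another chaperone of the base, was at 12.4, 14.1 and 14.0 normalized CPM in IL-11- and at 10.6, 12.2 and 11.4 in IL-11+ fibroblasts, apart by less than 1 CPM and with an edgeR adjusted p of 0.73. The inhibitor *Psmf1* had 0.25 and 0.723.

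The 3 members below the filter had few tags. *Psmg3*, a chaperone of the core, had 4, 10 and 16 tags in the IL-11- and 2, 4 and 9 in the IL-11+ libraries. *Psmb11* had 1, 4 and 3 tags in the IL-11- and 6, 2 and 5 in the IL-11+ libraries, so the thymic subunit was near 0 in this tissue. *Psmc3ip* had 3, 1 and 2 against 1, 0 and 0 tags.

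Several partners of the proteasome fall outside the symbols that start with *Psm*. Of 9 such symbols, 2 (*Ecpas* and *AI314180*) name 1 gene whose counts may be split. At an edgeR adjusted p under 0.05, 2 of the 9 (22.2%) were higher, against 6.84% of all tested genes, and 0 were lower, against 8.70%. With the replicate block 3 were higher (also *Txnl1*), against 9.33%, and DESeq2 called 0. The estimate was above 0 for 4 of the 9 (44.4%), with a median log2 fold change of −0.02, and *Ecpas* was lower in each IL-11+ library than in any IL-11- library (−0.37, edgeR adjusted p of 0.325). *Pomp*, the chaperone that completes the core, stood at 61.1, 89.5 and 84.6 normalized CPM in IL-11- and at 130.4, 113.7 and 110.6 in IL-11+ fibroblasts, with a log2 fold change of 0.59 and an edgeR adjusted p of 0.0367. *Sem1*, a small subunit of the lid, stood at 65.9, 95.2 and 91.1 and at 122.9, 115.7 and 131.6, with 0.55 and 0.0459. The groups did not overlap for either gene, but both calls depended on the library and the tool. The adjusted p of *Pomp* stayed under 0.05 in 6 of 13 alternatives (0.0101 to 0.198) and in 1 of 6 without a library, and that of *Sem1* in 4 of 13 (0.0127 to 0.232) and in 0 of 6.

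Of 16 symbols of genes that make, carry or extract ubiquitinated proteins, 2 (12.5%) were higher at an edgeR adjusted p under 0.05, against 6.84% of all tested genes. Of the 16, 0 were lower, against 8.70%. With the replicate block 3 were higher (also *Uba1*), against 9.33%, and DESeq2 called 1, *Vcp*. The estimate was above 0 for 11 of the 16 (68.8%), with a median of 0.15. *Ufd1* and *Ufd1l* name 1 gene, whose counts may likewise be split. *Uba6*, a ubiquitin-activating enzyme, stood at 20.1, 19.8 and 31.2 normalized CPM in IL-11- and at 35.0, 50.8 and 45.8 in IL-11+ fibroblasts, with a log2 fold change of 0.88 and an edgeR adjusted p of 0.0313. *Vcp*, the ATPase that extracts ubiquitinated proteins from complexes and membranes, stood at 147.0, 139.4 and 156.8 and at 217.3, 217.3 and 207.9, with 0.53 and 0.0259. Neither gene's groups overlapped, and the values of *Vcp* were tightly grouped. *Uba6* was called in 7 of 13 alternatives (0.00877 to 0.148) and in 2 of 6 without a library, and *Vcp* in 8 of 13 (0.00693 to 0.134) and in 2 of 6.

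Transcription of proteasome genes is known to be raised by the factor encoded by *Nfe2l1* when proteasomes are blocked, and by that of *Nfe2l2* under oxidative stress. Of the 4 genes listed for this response, 1 was higher at an edgeR adjusted p under 0.05, against 6.84% of all tested genes, and 0 were lower, against 8.70%, and DESeq2 called 0. *Nfe2l2* stood at 200.5, 210.1 and 236.5 normalized CPM in IL-11- and at 284.0, 277.2 and 363.3 in IL-11+ fibroblasts, and *Nfe2l1* at 165.2, 188.4 and 158.5 and at 195.0, 222.4 and 229.8. Both were higher in each IL-11+ library than in any IL-11- library, as were 14.5% of all tested genes. The log2 fold changes were 0.51 and 0.34, with edgeR adjusted p of 0.0458 and 0.19, and *Nfe2l2* was called in 5 of 13 alternatives (0.00777 to 0.182) and in 1 of 6 without a library. *Ngly1*, which removes sugar chains from misfolded proteins, was lower in each IL-11+ library, at 27.7, 25.4 and 23.0 normalized CPM in IL-11- and at 21.2, 18.3 and 14.3 in IL-11+ fibroblasts (log2 fold change −0.50, edgeR adjusted p of 0.296), and the protease gene *Ddi2* had 0.05 and 0.952. In the lists of partners, ubiquitin genes and this response, 0 genes were lower at edgeR's unadjusted p under 0.05, against 14.5% of all tested genes. DESeq2 called 0 lower at an adjusted p under 0.05, against 608 of all 9334 tested genes. Of the edgeR calls of these lists, those of *Pomp* (0.0904), *Sem1* (0.111), *Uba6* (0.0747) and *Nfe2l2* (0.0609) were lost with DESeq2.

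Of 8 tested genes of interferon signaling, from receptor to factor, edgeR without the replicate block called 0, against 6.84% of all tested genes higher and 8.70% lower. DESeq2 called 0. At edgeR's unadjusted p under 0.05, 0 were higher, against 12.2% of all tested genes, and 1 (12.5%) was lower, close to the 14.5% of all tested genes. That gene was *Irf1*, a factor that activates the immune core genes, at 439.2, 530.4 and 309.6 normalized CPM in IL-11- and at 346.6, 260.9 and 261.3 in IL-11+ fibroblasts. The groups overlapped by IL-11- replicate 3. On the log2 scale the difference was −0.56 (SE 0.198), with an edgeR adjusted p of 0.0669, and 0.00659 with the replicate block. It was called lower in 6 of 13 alternatives (0.00659 to 0.339), among them 2 of 6 without a library, IL-11- replicate 3 (0.00986) and IL-11+ replicate 1 (0.0409). *Nlrc5*, an activator of MHC class I genes, was below the filter, with 4, 7 and 9 against 0, 7 and 1 tags.

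All 11 genes of peptide loading and MHC class I had an estimate above 0, against 48.8% of all tested genes, with a median of 0.23. Of them 1 (9.09%) was called higher, against 6.84%, or 2 with the replicate block (*Canx* and *Tapbpl*), against 9.33%. The gene called without it was *Canx*, a chaperone of the endoplasmic reticulum that is not limited to MHC molecules, at 424.9, 514.4 and 516.5 normalized CPM in IL-11- and at 656.1, 764.5 and 900.2 in IL-11+ fibroblasts. The groups were far apart. The log2 fold change was 0.67, with an edgeR adjusted p of 0.011, and the call was lost in 1 of 13 alternatives, without IL-11- replicate 1 (0.0866, the lowest being 0.00017).

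In the genome (GRCm38), *Psmb9* (chr17:34181987-34187764, minus strand) and *Psmb8* (chr17:34197721-34201454, plus strand) lie in the MHC on either side of *Tap1* (chr17:34187553-34197225, plus strand). The 5′ ends of *Psmb9* and *Tap1* overlap on opposite strands, and tags were mapped in one orientation. *Tap1*, a subunit of the peptide transporter, stood at 23.9, 18.8 and 41.1 normalized CPM in IL-11- and at 26.5, 47.7 and 47.7 in IL-11+ fibroblasts, with an edgeR adjusted p of 0.291. *Psmb5* (chr14:54614119-54618022, minus strand) and *Psmb11* (chr14:54621433-54629556, plus strand) also lie close together, and of this pair *Psmb11* was near 0.

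Promoters were read from RefSeq (GRCm38.p6), from 250 bases before to 50 after each gene's start, and were matched for 42 of the 49 members. Those of *Psmb1*, *Psmb2*, *Psmb7*, *Psmc3*, *Psmd3*, *Psmd7* and *Psmg2* were not matched. On both strands, 3 motifs were searched, the interferon response core GAAANNGAA, the gamma-activated site TTCNNNGAA and the antioxidant response core TGACNNNGC, of which the second reads the same on both strands. The first was found in 7 of 42 members (16.7%) and in 9.8% of all genes with a promoter, the second in 3 (7.1%) and 9.6%, and the third in 6 (14.3%) and 14.0%. The shares of members and of all genes were thus close for the antioxidant response core. At least 1 of the 3 motifs was found in 35.7% of members and in 29.3% of all genes. Of the 6 called members, 3 held a match, *Psmb5* to the antioxidant response core, *Psmc2* to the interferon response core and *Psmd2* to the gamma-activated site, and of the immune core *Psmb8* held the gamma-activated site. With the RefSeq start as 0, the matches start at −47 in *Psmb5*, −8 in *Psmc2*, 4 in *Psmd2* and −97 in *Psmb8*. *Psmc2* has another RefSeq start, without a match, and the starts used for *Psmb5*, *Psmc2* and *Psmb8* lie inside the GENCODE gene. A match is a description of letters and not of binding. These 4 promoters are shown, 5′ to 3′ on the strand of the gene with the match in capitals, because they are those of the called members and of the immune core that hold a match.
Psmb5, chr14:54617946-54618245, minus strand: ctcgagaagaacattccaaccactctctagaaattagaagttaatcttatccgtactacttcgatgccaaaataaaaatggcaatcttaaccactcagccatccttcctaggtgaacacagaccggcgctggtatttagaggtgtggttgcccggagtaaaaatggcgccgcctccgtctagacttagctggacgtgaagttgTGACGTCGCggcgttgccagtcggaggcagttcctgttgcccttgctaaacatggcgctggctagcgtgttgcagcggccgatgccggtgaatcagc
Psmc2, chr5:21786497-21786796, plus strand: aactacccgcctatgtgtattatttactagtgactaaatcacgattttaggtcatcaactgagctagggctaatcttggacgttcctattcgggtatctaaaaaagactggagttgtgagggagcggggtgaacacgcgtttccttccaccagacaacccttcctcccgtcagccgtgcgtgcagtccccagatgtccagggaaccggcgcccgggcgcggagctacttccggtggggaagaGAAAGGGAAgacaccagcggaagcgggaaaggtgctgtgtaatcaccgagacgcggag
Psmd2, chr16:20651402-20651701, plus strand: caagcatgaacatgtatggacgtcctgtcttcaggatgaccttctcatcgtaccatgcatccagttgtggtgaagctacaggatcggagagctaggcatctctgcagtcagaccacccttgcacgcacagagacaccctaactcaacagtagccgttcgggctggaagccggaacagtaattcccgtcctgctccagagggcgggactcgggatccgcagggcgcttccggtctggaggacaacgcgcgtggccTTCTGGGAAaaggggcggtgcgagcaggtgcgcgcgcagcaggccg
Psmb8, chr17:34197945-34198244, plus strand: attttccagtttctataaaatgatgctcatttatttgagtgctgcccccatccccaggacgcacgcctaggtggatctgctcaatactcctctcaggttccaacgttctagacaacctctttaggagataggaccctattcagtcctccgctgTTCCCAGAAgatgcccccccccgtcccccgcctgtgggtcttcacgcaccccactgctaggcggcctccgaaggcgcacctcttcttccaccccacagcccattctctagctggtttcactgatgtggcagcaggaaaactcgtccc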

How the data were processed

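Reads of the 6 libraries were trimmed by the authors (Cutadapt 1.18) and aligned with Bowtie2 2.2.5 to RefSeq RNA of mm10, using a single orientation, and the deposited values are raw tag counts per gene symbol. How tags that match several genes were treated, and whether molecular identifiers were used, is not given in the sources used here. The study's methods as printed exclude genes with 10 or more tags, read here as keeping them.

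Counts were tested in R 4.3.3 with edgeR 4.0.16 (TMM, glmQLFit, glmQLFTest, Benjamini-Hochberg over the 9334 genes that reached 10 tags in 3 or more libraries), and the fit was tested on simulated data. The study's threshold is an adjusted p under 0.05 and a change over 2-fold. Alternatives were RLE, library size only, iterative TMM, DESeq2 1.42.0, other low-count filters, the replicate block and each library left out.

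The methods name 3 mice, and the labels number both groups 1 to 3. Deviations from the group means of same-numbered libraries correlated across 5064 genes (r = 0.23, 0.20 and 0.27, a description, since genes are not independent). The numbers were therefore taken to pair the libraries in the replicate block. The main fit has no block, as the study's methods state none, so its calls and intervals leave this pairing out. With the block, *Psmb8* was also called higher (edgeR adjusted p 0.0323) and *Irf1* lower (0.00659).

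Members and gene lists were chosen with earlier results of these data known. Named genes are the cutting subunits and activators, the 4 members with the smallest p in each of 4 classes, members below the filter, list genes with an adjusted p under 0.05, and preset regulators and markers. *Ddi2*, *Ecpas*, *Ngly1*, *Psma5*, *Psmd3*, *Psmd5*, *Psmd7*, *Psme2b*, *Psmf1*, *Tap1*, *Tapbpl*, *Txnl1*, *Uba1*, and the marker genes other than the most abundant of each list, were named after their values were seen. Some genes of the lists are not reported here. Positions and shared 50-nt windows come from GENCODE mouse release M21 (GRCm38), and 14 of 49 members had at least 1 shared window.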

Additional observations from a re-analysis of the deposited data

How the results depend on the processing

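The 0 calls in either direction at the study's threshold, and the 0 members lower at an adjusted p under 0.05, held in all 13 alternatives. The number of members higher at an adjusted p under 0.05, 6, was 3 with DESeq2 and 2 to 5 when a library was left out. *Psmb5* was called in all 13. With no low-count filter 6 were called, with *Psmb8* in place of *Psma6*. With the replicate block, 7 members were called, the 6 and *Psmb8*, and the block also changed the calls of *Col1a2*, *Irf1*, *Tapbpl*, *Txnl1* and *Uba1*. With library size only, 4 members were called higher in place of 6. The median log2 fold change was then 0.20 in place of 0.29 for the regulatory particle and 0.10 in place of 0.18 for the constitutive core. For the regulatory particle it was 0.25 to 0.44 when a library was left out. Leaving out a library gave medians of 0.11 to 0.23 for the constitutive core, −0.32 to 0.15 for the immune core, −0.07 to 0.21 for the activators and 0.16 to 0.35 for the assembly chaperones. The immune core gave 0.10 over the 2 genes with 10 tags in all libraries. The cause of these changes was not tested, and a fit without a library also rests on fewer libraries. Scaling by library size alone moved the median of all tested genes from −0.01 to −0.10, with a median shift of −0.082 per gene.

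The 1022851 to 1169817 tags per library limit what can be seen for *Psmb9*, *Psme2b*, *Psmf1* and the chaperones, and with 3 libraries per group an interval such as that of *Psmb9*, −1.18 to 0.73, holds a difference of over 2-fold lower as well as a higher level.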

Other observations

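Many MHC class I and immune core genes had their lowest level in replicate 1 of both groups, a pattern that was noticed after the values were seen. For 9 of 11 tested genes of peptide loading (81.8%) and for *Psmb8* and *Psmb10* of the immune core, replicate 1 was the lowest library in both groups, against 13.5% of all 9334 tested genes. *B2m* stood at 1592.6, 2152.8 and 2139.0 normalized CPM in IL-11- and at 1343.9, 2240.8 and 2666.4 in IL-11+ fibroblasts, and *H2-K1* at 738.1, 998.7 and 1010.8 and at 719.7, 1094.5 and 1197.8. The same held for 5 of 14 constitutive core genes (35.7%) and for 4 of 17 genes of the regulatory particle (23.5%). For the 8 tested genes of interferon signaling it held for 1 (12.5%), near the share of all tested genes. Why replicate 1 was low was not tested.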
